A study of Mus musculus with 23 samples.

Results

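Gene expression of mouse CD4+ T cells that carried CD49f on their surface was compared between cells with and without CD25. The comparison used the 4 arrays titled CD25+CD49f+ and the 7 arrays titled CD25-CD49f+, which were 11 of the 23 arrays of the series, and every gene on the array. CD25 forms the alpha chain of the receptor for interleukin-2, while CD49f is integrin alpha 6, which binds laminins. The other 12 arrays, 5 of CD25+CD49f- and 7 of CD25-CD49f- cells, were used to show where the CD25 comparison differed between the CD49f gates. All 4 groups were given by the labels as T cells of female mice, taken as biological replicates. Strain, age, tissue and treatment are not given in the sources used here, nor is whether animals were pooled. Total RNA was hybridised as biotin-labelled cRNA, and the values are log2 expression, so that a difference of 1 is a change of 2-fold. In sorted bulk samples such as these, fewer cells of a type and less RNA per cell cannot be told apart.

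Regulatory T cells (Treg cells) are CD4+ T cells that restrain other immune cells. They depend on the transcription factor Foxp3, and they carry CD25 at high levels, which lets them take up interleukin-2 (IL-2). IL-2 acts through the kinases Jak1 and Jak3 and the transcription factor STAT5, which induces genes such as Cish and Socs2 that dampen the same signal. CD25 also appears on conventional T cells after activation, and recently activated or memory CD4+ T cells carry homing receptors, cytokine genes and S100 and annexin genes at high levels.

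The arrays of the comparison were closely alike within each group, except for CD25-CD49f+ replicate 1, whose median correlation with its group was 0.9843 against 0.9957 to 0.9966 for the other 6. It is 1 of 4 arrays of the series that stood apart from their groups. Another, CD25+CD49f- replicate 5, showed both Xist (10.674) and the Y-linked Eif2s3y (8.005), and its gap between 3' and 5' probe sets of Actb, a sign of RNA quality, was 4.828 against 1.221 to 2.7 on the other 22 arrays. Although all mice were labelled female, Xist, the RNA of the inactive X chromosome, was present without Y-linked transcripts on 2 of the 4 CD25+CD49f+ and 4 of the 7 CD25-CD49f+ arrays, and the remaining 2 and 3 showed Y-linked transcripts without Xist. Both kinds were thus present in both groups, and counts are given below for each kind alone. An absent transcript read up to 6.499 (Xist on arrays without it), so levels under this value may be background, and fold changes against them are those of the signals. This level differs between probe sets. Eif2s3y read 3.492 at most where it was absent, so a gene under 6.499 may also be expressed. The T cell transcript Cd3e averaged 11.66 with and without CD25 (limma adjusted p = 0.997).

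Among CD49f+ cells, 1040 of 18194 genes (5.72%) passed the test for CD25, a limma p-value under 0.05 after adjustment over all genes, and such genes are called below. The CD25+CD49f+ cells had the higher level in 511 (2.81%) and the lower in 529 (2.91%), and 2393 genes had an unadjusted p under 0.05. Most changes were small. The median size among called genes was 0.58 for the higher and -0.66 for the lower ones, 95 were higher and 104 lower by 1 or more, and 11 and 7 by 2 or more. The median difference of all genes was 0.019, and the median standard error was 0.116. In 910 of the 1040 called genes the arrays of both groups did not overlap. For comparison, every CD25+ array lay above every CD25- array in 787 genes (4.33%) and below in 709 (3.9%) of all genes tested. Both group means were under 6.499 in 232 of the 1040 called genes, against 9778 of all 18194 genes. Among arrays without Y-linked transcripts alone 493 genes were called, and among those with Y-linked transcripts and without Xist 264. Without the 4 arrays that stood apart 2361 genes were called, and all 1040 remained called in the same direction.

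**Figure D1:**
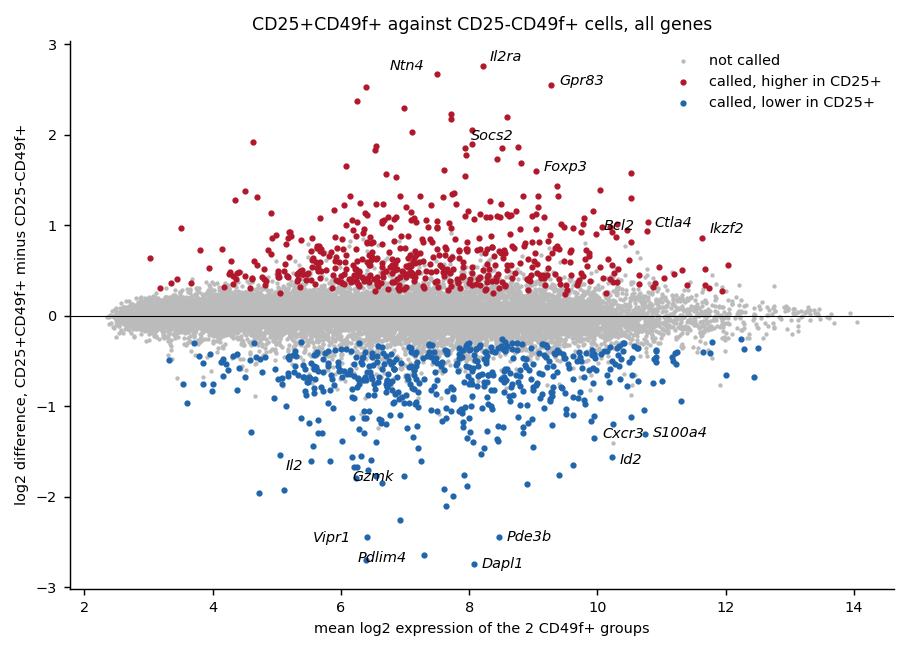
Each point is 1 gene, with its mean log2 expression over both CD49f+ groups on the horizontal axis and the log2 difference, CD25+CD49f+ minus CD25-CD49f+, on the vertical axis. The 511 genes called higher are red, the 529 called lower are blue, and Il2ra and Dapl1 mark the largest difference at either end.

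The sorted markers and Foxp3 were examined first. Il2ra, which codes CD25, read 9.45, 9.45, 9.76 and 9.75 on the CD25+CD49f+ arrays, and 6.46 at the lowest, 6.90 at the median and 7.09 at the highest of the 7 CD25-CD49f+ arrays. The groups were far apart, and the difference of 2.76 ± 0.12 (SE), or 6.78-fold, was the largest of the upward changes (limma adjusted p = 9.47e-14). This checks the sort, since CD25 was used for it. Foxp3 read 9.80, 9.61, 10.09 and 9.88 with CD25, and from 7.80 to 8.46 (median 8.36) without it. The difference was 1.60 ± 0.14 (SE), 3.03-fold (adjusted p = 1.35e-08), and it was 1.57 among arrays without Y-linked transcripts and 1.59 among those with them. The CD25-CD49f+ arrays thus lay above the level of absent transcripts for Foxp3, with a mean of 8.25 ± 0.22 (SD, n = 7). Itga6, which codes CD49f itself, read 9.78, 9.84, 9.78 and 9.84 with CD25 and from 9.23 to 9.47 (median 9.37) without it. No arrays overlapped, and the difference was 0.45 ± 0.10 (adjusted p = 0.00288). On its dimmer probe set the Itga6 difference was 0.55, which was not called in the test of every probe set (adjusted p = 0.507). The Itga6 call was lost when its probe sets were averaged or the most variable was used. Itgb1, the beta chain that pairs with CD49f, averaged 10.16 ± 0.07 (SD, n = 4) and 10.93 ± 0.32 (SD, n = 7), a difference of -0.77 ± 0.27 that was not called (adjusted p = 0.117). CD25-CD49f+ replicate 1 had the lowest Itgb1 level of its group (10.24), and without it the difference was -0.88 (adjusted p = 0.0466). In the test of every probe set, 2 dimmer Itgb1 probe sets were called lower, by -0.51 (adjusted p = 0.00578) and, under the level of absent transcripts, by -0.44 (adjusted p = 0.0134).

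**Figure D2:**
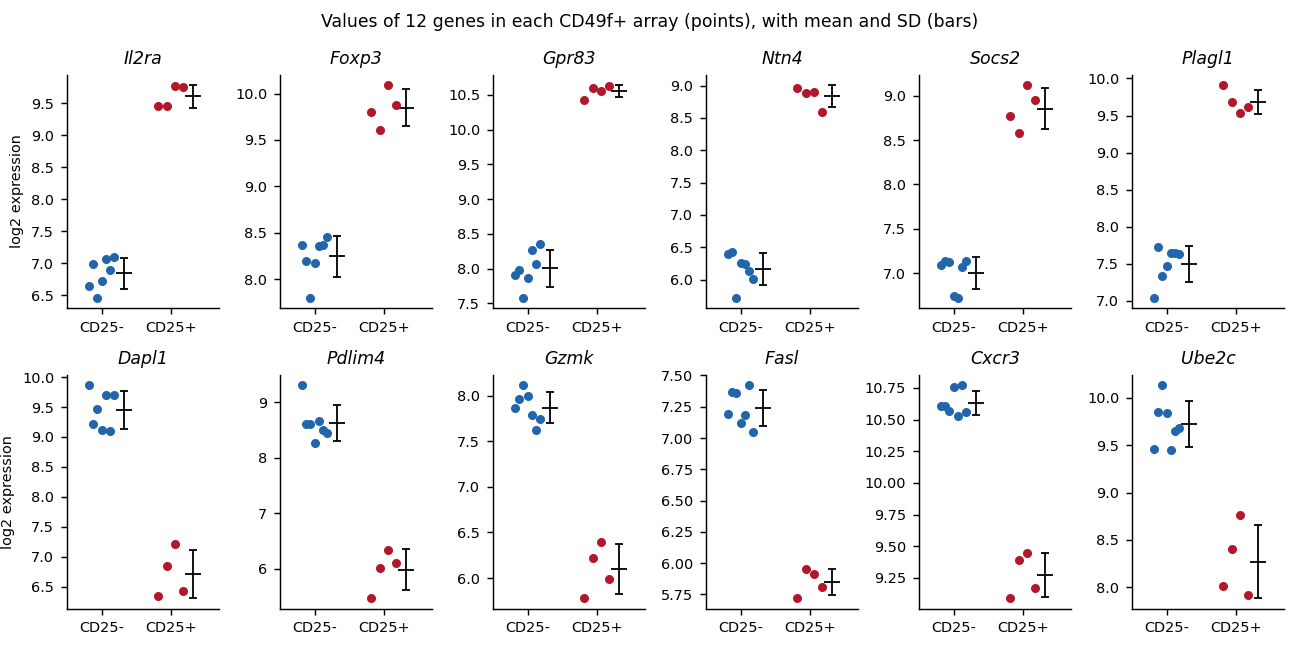
Log2 expression of 12 genes on each of the 7 CD25-CD49f+ (blue) and 4 CD25+CD49f+ arrays (red), with the group mean and SD beside the points. In all 12 genes the arrays of both groups do not overlap, with the upper row higher and the lower row lower in CD25+CD49f+ cells, and each panel has its own axis range.

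The Treg identity list holds genes known to mark or maintain Treg cells. It was written with earlier results of these data known, so its count is a description and not independent support. All 21 of its measured members were called higher in CD25+CD49f+ cells, against 2.81% of all genes, with a median difference of 1.304. The 21 include Il2ra, whose rise follows from the sort. For all 21, every CD25+CD49f+ array lay above every CD25-CD49f+ array. Leaving out any 1 array left 19 to 21 called, arrays without Y-linked transcripts alone called 19 (median 1.301) and those with them 12 (median 1.235). The receptor Gpr83 read 10.43, 10.60, 10.56 and 10.62 with CD25 and from 7.58 to 8.36 (median 7.98) without it, a rise of 2.55 ± 0.11 (adjusted p = 6.29e-14). This 5.85-fold rise was the largest of the list after Il2ra. Plagl1, a zinc finger transcription factor, read 9.91, 9.68, 9.54 and 9.61 against 7.04 to 7.72 (median 7.63), a rise of 2.19 ± 0.14. Penk, the precursor of enkephalin peptides, rose by 2.05 ± 0.18, with group means of 9.06 and 7.01. Among transcription factors, Ikzf4 (Eos) rose by 1.86 ± 0.16 and Ikzf2 (Helios) by 0.86 ± 0.12. Ikzf2 averaged 12.06 ± 0.11 (SD, n = 4) with CD25 and 11.20 ± 0.14 (SD, n = 7) without it. Ctla4, the inhibitory receptor that binds the B7 ligands, read 11.42, 11.01, 11.30 and 11.24 against 10.07 to 10.49 (median 10.33) and rose by 0.93 ± 0.16 (adjusted p = 3.62e-04). The TNF receptors Tnfrsf9 (4-1BB), Tnfrsf4 (OX40) and Tnfrsf18 (GITR) rose by 1.44 ± 0.17, 1.30 ± 0.14 and 0.92 ± 0.12. Ecm1, an extracellular matrix protein, rose by 1.78 ± 0.12. The integrin chains Itgb8 and Itgae (CD103) rose by 1.61 ± 0.36 and 0.95 ± 0.20. Nrp1, the semaphorin receptor neuropilin-1, depended on the probe set. On the one used it read 10.86, 10.93, 10.36 and 10.78 against 9.21 to 10.10, with a difference of 0.87 ± 0.25 (adjusted p = 0.0419) that was no longer called without any of 13 arrays left out singly (adjusted p up to 0.145). Its 3 other probe sets, in the test of every probe set, were higher by 1.00, 0.92 and 0.77 (adjusted p = 5.01e-07, 0.00158 and 0.0163). Capg, an actin-capping protein, rose by 0.55 ± 0.16 (adjusted p = 0.0304), and this call was lost in 6 such fits (adjusted p up to 0.115).

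The genes with the largest increases were mostly not classical Treg genes. Ntn4, a secreted laminin-related netrin, read 8.97, 8.89, 8.90 and 8.59 against 5.72 to 6.43 (median 6.24), a rise of 2.67 ± 0.14, or 6.36-fold (adjusted p = 1.65e-12). Rragd, a small GTPase that signals amino acid supply to mTORC1, read 7.45, 7.87, 7.63 and 7.63 against 4.37 to 5.43 (median 5.23), a rise of 2.53 ± 0.21. All 7 CD25-CD49f+ arrays were thus in the range of absent transcripts for both genes. The same held for Ryr2, a calcium release channel of the endoplasmic reticulum, which rose by 2.37 ± 0.21 to 7.44 ± 0.16 (SD, n = 4), and for Sh3bgrl2, which rose by 2.30 ± 0.19 to 8.14 ± 0.14. Further increases were those of Itih5 (2.23 ± 0.14), a hyaluronan-binding protein, the calpain protease Capn3 (2.17 ± 0.28), the muscle-type enolase Eno3 (1.90 ± 0.17), Gucy1a1 (1.87 ± 0.17), a subunit of the soluble guanylate cyclase that senses nitric oxide, and the calcium-binding protein Rcn1 (1.85 ± 0.29). The CD25 difference did not pass the test for a difference between CD49f gates in Rragd, Ryr2, Sh3bgrl2, Capn3, Eno3, Gucy1a1 and Rcn1, whose differences in the CD49f- gate were 2.42, 2.27, 2.99, 2.40, 1.63, 2.25 and 1.49.

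Receptors, signal carriers and targets of the IL-2 pathway differed from each other. Of 19 measured members, 7 were higher (against 2.81% of all genes), 2 lower (against 2.91%) and 10 not called (median 0.291). The 7 include Il2ra, on whose product the cells were sorted. Besides Il2ra, the receptor beta chain Il2rb rose. It read 10.34, 10.59, 10.57 and 10.56 against 9.21 to 9.64 (median 9.30), a rise of 1.16 ± 0.11, or 2.24-fold (adjusted p = 9.73e-08). The kinases Jak1 (-0.10 ± 0.28) and Jak3 (0.09 ± 0.14) and the transcription factors Stat5a (0.41 ± 0.16) and Stat5b (0.13 ± 0.08) were not called. Of the feedback inhibitors, Cish read 10.05, 9.93, 10.15 and 10.05 against 8.41 to 9.03 (median 8.74) and rose by 1.32 ± 0.12, or 2.50-fold (adjusted p = 1.7e-08). Socs2 read 8.77, 8.58, 9.12 and 8.95 against 6.72 to 7.13 (median 7.09) and rose by 1.86 ± 0.13 (adjusted p = 2.46e-10). Socs1 read under 6.499 on all 11 arrays and its call (0.73 ± 0.21, adjusted p = 0.0349) was lost without any of 9 arrays, and Socs3, at 0.29 ± 0.14, was not called. Il4ra, the IL-4 receptor alpha chain, rose by 0.57 ± 0.12 (adjusted p = 0.00225), with levels of 8.37 to 8.68 against 7.87 to 8.44 that overlapped. The receptor for IL-7, Il7r, moved the other way. It read 11.16, 10.97, 10.63 and 10.56 with CD25 and from 11.57 to 11.99 (median 11.75) without it, a fall by 0.94 on the log2 scale (SE 0.18, adjusted p = 8.09e-04). The serine/threonine kinases Pim1 (0.41 ± 0.15) and Pim2 (-0.39 ± 0.16) were not called.

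Promoter windows of these genes were searched for the STAT5 letters TTCNNNGAA, which read alike on both strands. In the windows of RefSeq (GRCm38.p6), from 250 bases before to 50 after a gene's start, 3 of 16 IL-2 pathway genes with a window held a match (18.8%), against 9.55% of 27025 genes. The 3 were Cish, Socs3 and Il7r, whose expression differed in size and direction as given above. A match is a description of letters and not a site. Cish is shown because it rose on every array and held 2 matches next to each other, the first at the annotated start and the second 11 bases after it. The sequence runs 5′ to 3′ from 250 bases before to 30 after the start, at chr9:107296409-107296688 on the plus strand, and capitals mark the matches.
Cish: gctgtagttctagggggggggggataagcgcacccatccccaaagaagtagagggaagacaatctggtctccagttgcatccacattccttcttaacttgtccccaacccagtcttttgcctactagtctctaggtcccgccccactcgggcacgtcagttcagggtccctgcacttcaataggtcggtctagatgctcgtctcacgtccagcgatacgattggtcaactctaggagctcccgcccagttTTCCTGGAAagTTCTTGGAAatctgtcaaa

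Most survival and signalling genes were not called. For the counts of this paragraph, the shares over all genes were 2.81% higher and 2.91% lower. Bcl2, which blocks mitochondrial cell death, read 10.46, 10.25, 10.46 and 10.50 against 9.33 to 9.81 (median 9.49), a rise of 0.90 ± 0.12 (adjusted p = 1.87e-05). In the CD49f- gate Bcl2 differed by less than 0.01 between CD25+ and CD25- cells, and the difference between gates was called (0.90, adjusted p = 0.00104). Mcl1 rose by 0.31 ± 0.07, and Bcl2l1 (Bcl-xL) by 0.42 ± 0.10, a call lost without CD25+CD49f+ replicate 3 or 4 (adjusted p up to 0.0648), so that 3 of 11 measured Bcl2 family members were higher and 0 lower. In the test of every probe set, another Mcl1 probe set was called (0.30, adjusted p = 0.0284). The rest were higher by 0.21 to 0.39 and not called (adjusted p from 0.0529 to 0.83). Among regulators of G protein signalling Rgs16 rose by 0.93 ± 0.20 and Rgs10 by 0.62 ± 0.09. Of the phosphatases and Sprouty genes that restrain MAP kinases, Dusp4 and Spry1 rose by 1.10 ± 0.17 and 1.09 ± 0.11, while Dusp10 fell by 0.75 on the log2 scale (SE 0.13). In the NF-kB list, Tnip1 (0.45 ± 0.08) and Birc3 (0.55 ± 0.13) were the 2 of 14 that were called, both higher. The difference was above 0 in 13 of the 14 (median 0.331), against 10201 of all 18194 genes. Of 26 early genes of T cell receptor signalling, 3 rose, 1 fell and 22 were not called. Nr4a3, an orphan nuclear receptor, rose by 0.73 ± 0.12, and Ier3 fell by 1.13 on the log2 scale (SE 0.11), with both of its group means under 6.499. Myc rose by 0.73 ± 0.19 (adjusted p = 0.0152), a call lost without CD25+CD49f+ replicate 1 or 3 (adjusted p up to 0.0669).

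Costimulatory and TNF receptor genes had 9 higher, 1 lower and 11 uncalled members of 21 (median 0.288). Of the higher ones, Tnfrsf4, Tnfrsf9, Tnfrsf18 and Ctla4 were already counted in the Treg identity list. Of all genes, 2.81% were higher and 2.91% lower. Cd86, a B7 ligand, read 7.71, 8.44, 8.46 and 8.16 against 6.87 to 7.43 (median 7.15), a rise of 1.02 ± 0.16. Tnfrsf1b (TNF receptor 2) rose by 0.82 ± 0.14 and Lag3, an inhibitory receptor for MHC class II, by 0.67 ± 0.13. The receptors Icos (-0.44 ± 0.15), Pdcd1 (PD-1, 0.15 ± 0.17) and Cd28 (-0.16 ± 0.13) were not called. Among 19 suppressive effector genes, 7 were higher, 1 lower and 11 uncalled, against the same shares. Of these, Ctla4, Itgb8, Nt5e and Entpd1 are also in the Treg identity list. Besides Ctla4, Lag3 and Itgb8, the higher ones were Nt5e (CD73, 0.70 ± 0.14) and Entpd1 (CD39, 0.52 ± 0.12), the ectoenzymes that make adenosine from ATP, Ebi3 (0.64 ± 0.15), a subunit of IL-35, and Cd274 (PD-L1, 0.38 ± 0.10), whose call was lost without any of 3 arrays (adjusted p up to 0.123). Entpd1 read under 6.499 on all 11 arrays. Il10 read 5.61, 5.22, 5.42 and 5.42 against 4.80 to 5.54, with overlapping groups in the range of absent transcripts (0.28 ± 0.15, adjusted p = 0.489). Gzmb (0.14 ± 0.12), an effector molecule of some Treg cells, and Klrg1 (0.25 ± 0.11), a receptor carried by some Treg cells, were not called.

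Effector and memory genes moved in the opposite direction. Of 20 measured members, 12 were lower in CD25+CD49f+ cells, against 2.91% of all genes, 0 were higher and 8 were uncalled (median -0.758). Leaving out 1 array gave 12 to 13 lower members. S100a4, a calcium-binding protein abundant in memory T cells, read 9.87, 10.34, 9.93 and 10.19 against 11.26 to 11.54 (median 11.37) and fell by 1.31 on the log2 scale (SE 0.17, adjusted p = 5.19e-06). S100a6 fell by 1.12 (SE 0.13), and the membrane-binding annexins Anxa1 and Anxa2 by 1.18 (SE 0.15) and 1.08 (SE 0.10). The beta-galactoside-binding galectins Lgals3 and Lgals1 fell by 1.02 (SE 0.14) and 0.68 (SE 0.12). Id2, an inhibitor of E proteins, read 9.30, 9.61, 9.30 and 9.56 against 10.59 to 11.39 (median 10.92) and fell by 1.56 (SE 0.23). Cd44, the usual surface marker of experienced T cells, averaged 10.72 ± 0.07 (SD, n = 4) and 10.91 ± 0.16 (SD, n = 7), with overlapping groups, and was not called (-0.18 ± 0.17, adjusted p = 0.827).

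Among Th1 and cytotoxic genes, those that passed the test were lower, and most did not pass. Of 15 Th1 genes, 6 were lower (against 2.91% of all genes), 0 higher and 9 uncalled (median -0.333). The lower ones include Cxcr3 and Ccl5, which also count among the effector and memory genes. Tbx21 (T-bet), the transcription factor of Th1 cells, read 6.95, 7.69, 7.48 and 7.36 against 8.51 to 8.78 (median 8.69), and fell by 1.28 on the log2 scale (SE 0.12, adjusted p = 3.28e-08). The interferon gamma gene Ifng read 7.54, 6.93, 7.67 and 7.01 against 8.25 to 9.30 (median 8.64) and fell by 1.36 (SE 0.25). Il18rap, a chain of the IL-18 receptor, read 6.96, 6.95, 6.98 and 7.01 against 7.88 to 8.32 (median 7.98), a fall by 1.05 (SE 0.12). Runx3, which represses Cd4 and acts with T-bet, fell by 1.02 (SE 0.17), and Ccl5, a chemokine of effector cells, by 1.23 (SE 0.16). Of 15 cytotoxic genes, 5 were lower (against 2.91% of all genes), 0 higher and 10 uncalled (median -0.263). Fasl, the death ligand, read 5.72, 5.95, 5.91 and 5.81 against 7.05 to 7.42 (median 7.19) and fell by 1.40 (SE 0.09, adjusted p = 8.32e-11). Granzyme K (Gzmk) read 5.78, 6.22, 6.40 and 5.99 against 7.62 to 8.11 (median 7.86) and fell by 1.77 (SE 0.13). All 4 CD25+CD49f+ arrays were thus under 6.499 for both genes.

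Among 26 T cell cytokines and ligands 7 were lower (against 2.91% of all genes), 3 higher (against 2.81%) and 16 uncalled. Il2 read 5.08, 4.58, 4.64 and 4.63 with CD25 and from 5.98 to 6.81 (median 6.40) without it, a difference of -1.61 ± 0.18 (adjusted p = 6.74e-07). The groups did not overlap, but the levels lay around and under that of absent transcripts, so that the size of the change is uncertain. The same limit applies to Il21 (-1.29 ± 0.17) and to Il4 (-0.67 ± 0.10). Tnfsf14 (LIGHT), a ligand of the TNF family, was lower by -1.29 ± 0.20. The genes that rose were Lta (lymphotoxin alpha), Ltb (lymphotoxin beta) and Csf1. Lta read 8.32, 8.32, 8.69 and 8.41 against 6.96 to 7.24 (median 7.10), a rise of 1.35 ± 0.12, or 2.55-fold (adjusted p = 8.78e-09). Ltb rose by 0.56 ± 0.14 from a high level, to 12.31 ± 0.11 (SD, n = 4). The Csf1 rise of 0.71 ± 0.17 was not called without CD25+CD49f+ replicate 3 (adjusted p = 0.0578).

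Homing receptors and genes of naive cells were lower or not called, with 1 exception. Of 19 chemokine and lipid receptors, 6 were lower (against 2.91% of all genes) and 0 higher. The lower ones include Cxcr3, Ccr2 and Cxcr6, which also count among the effector and memory genes. Cxcr3, which guides Th1 cells to inflamed tissue, read 9.09, 9.39, 9.45 and 9.17 against 10.53 to 10.77 (median 10.61), a fall by 1.35 on the log2 scale (SE 0.11, adjusted p = 7.92e-09). Cxcr6 read 5.72, 6.07, 5.67 and 5.71 against 7.63 to 8.55 (median 8.10) and fell by 2.26 (SE 0.52, adjusted p = 0.00617). The oxysterol receptor Gpr183 (EBI2) fell by 1.00 (SE 0.13), Ccr10 by 1.14 (SE 0.15) and the sphingosine phosphate receptor S1pr4 by 0.60 (SE 0.09). Of 18 naive and quiescence genes, 7 were lower (against 2.91% of all genes), 1 higher (against 2.81%) and 10 uncalled (median -0.388). Dapl1 read 6.35, 6.84, 7.22 and 6.43 against 9.10 to 9.86 (median 9.47), and its fall by 2.74 (SE 0.16) was the largest downward change of all (6.68-fold, adjusted p = 2.18e-11). Pdlim4, a PDZ and LIM domain protein, fell by 2.64 (SE 0.16), to 5.98 ± 0.37 (SD, n = 4). The transcription factors Klf2, Lef1 and Satb1 fell by 0.54 (SE 0.11), 0.46 (SE 0.10) and 0.51 (SE 0.12), the last with adjusted p = 0.0634 without CD25+CD49f+ replicate 2. Bach2, a repressor that holds back effector genes, was the exception. It read 9.61, 9.72, 9.62 and 9.60 against 8.78 to 9.09 (median 8.92) and rose by 0.69 ± 0.11 (adjusted p = 1.47e-04). In the CD49f- gate Bach2 was lower in CD25+ cells (-0.36), and the difference between gates was called (1.05, adjusted p = 4.56e-05).

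Other large decreases fell outside these lists. The endothelial proteoglycan gene Esm1 read 4.83, 5.27, 5.20 and 4.83 against 6.31 to 8.42 (median 7.75), a fall by 2.70 on the log2 scale (SE 0.40), with a wide spread among CD25-CD49f+ arrays (SD 0.71, n = 7). Vipr1, a receptor for vasoactive intestinal peptide, read 4.49, 5.33, 5.29 and 5.63 against 7.36 to 8.33 (median 7.52) and fell by 2.45 (SE 0.20). Pde3b, which breaks down cyclic nucleotides, read 7.17, 7.82, 7.06 and 6.94 against 9.33 to 10.21 (median 9.50) and fell by 2.44 (SE 0.31). Decreases of 1.78 to 2.10 were measured for Emp1, App (the amyloid precursor protein), the cysteine protease inhibitor Ctla2a, the sialyltransferase St6galnac2, Sema4a, Tdrp, Epas1 (HIF-2 alpha) and the neurotrophin receptor Ntrk3. Themis, which sets the signal strength of the T cell receptor, read 7.45, 7.66, 7.27 and 7.32 against 8.80 to 9.07 (median 8.96) and fell by 1.52 (SE 0.10).

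**Figure D3:**
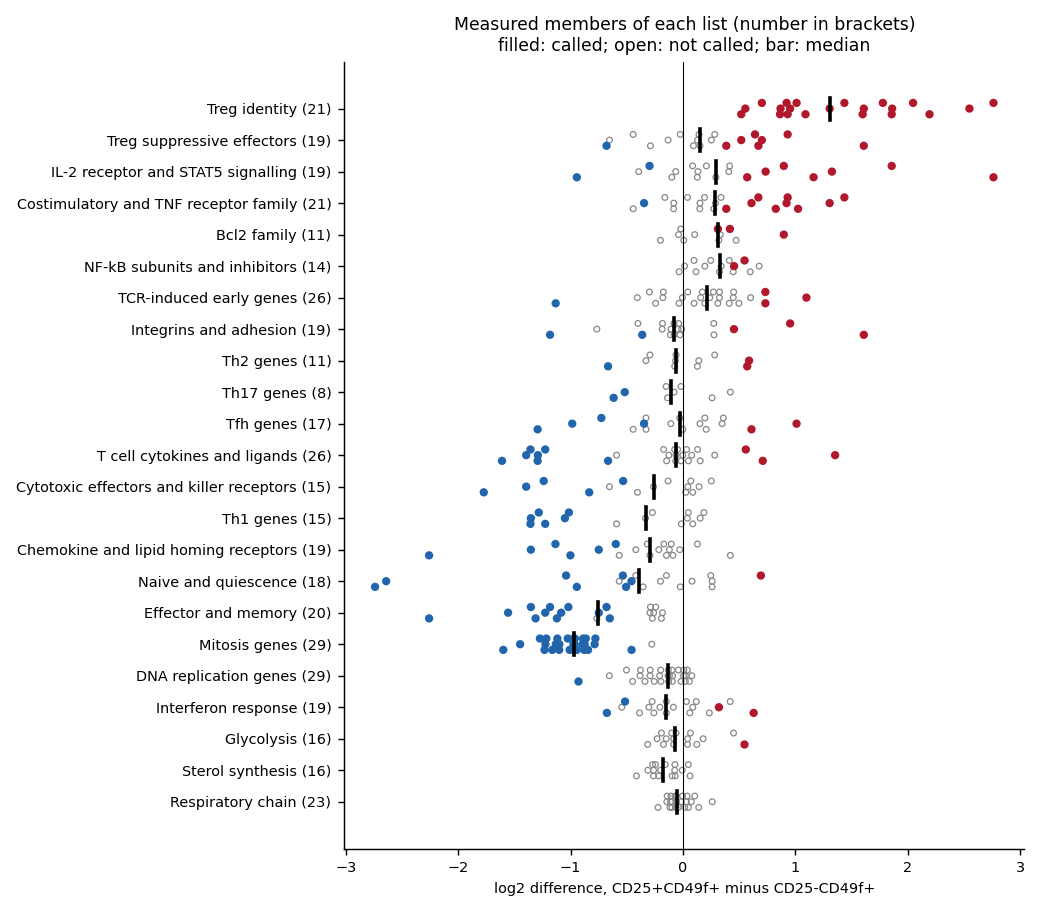
Each symbol is a measured member of a gene list, placed by its log2 difference, CD25+CD49f+ minus CD25-CD49f+, with called members filled (red higher, blue lower), uncalled members open, and the median of the list as a black bar. All 21 Treg identity genes lie to the right of 0 and 28 of 29 mitosis genes are called to the left. Most DNA replication genes lie nearer to 0, with 22 of 29 to its left.

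Calls among the cell cycle genes split by phase. Of 29 measured genes that act in mitosis, 28 were lower in CD25+CD49f+ cells, against 2.91% of all genes, and Tpx2 (-0.28 ± 0.21) was not called. The median difference was -0.974. Leaving out 1 array gave 23 to 28 lower members, arrays without Y-linked transcripts alone 19 (median -0.98) and those with them 7 (median -0.928). Cdk1, the kinase that drives entry into mitosis, read 7.38, 7.85, 7.89 and 7.26 against 8.08 to 8.77 (median 8.46) and fell by 0.89 on the log2 scale (SE 0.14, adjusted p = 9.92e-05). Its partner cyclin B2 (Ccnb2) fell by 1.27 (SE 0.19). Ube2c and Cdc20, which serve the anaphase-promoting complex, fell by 1.45 (SE 0.19) and 0.97 (SE 0.14). Ube2c read 8.01, 8.40, 8.76 and 7.92 against 9.45 to 10.13 (median 9.68), with no overlap. The kinetochore and spindle genes Birc5 (survivin) and Plk1 fell by 1.23 (SE 0.18) and 1.10 (SE 0.14), and Mki67, the proliferation antigen Ki-67, by 1.16 (SE 0.17). The list mean on each array is taken over the same genes and arrays, so it adds no separate support. The mean over the 29 mitosis genes was 6.94 to 7.46 on the CD25+CD49f+ arrays and 7.80 to 8.47 on the CD25-CD49f+ arrays.

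Genes of DNA replication, which are expressed before mitosis, mostly did not pass the test. Of 29 measured members 1 was lower (against 2.91% of all genes), 0 were higher and 28 were uncalled, with a median of -0.131. The difference was below 0 in 22 of the 29, against 7993 of all 18194 genes. An unadjusted limma p under 0.05 was found in 8 of the 29, against 2393 of all genes. The 1 called gene was the PCNA-binding factor Pclaf (-0.93 ± 0.24), whose call was lost without CD25+CD49f+ replicate 1 or 4 (adjusted p up to 0.0651). Without the 4 arrays that stood apart 8 of the 29 were lower (median -0.176). The mean over the 29 genes was 8.23 to 8.52 on the CD25+CD49f+ arrays and 8.35 to 8.74 on the CD25-CD49f+ arrays, so that the groups overlapped. Cdkn2c, the p18 inhibitor of cyclin D kinases, was the only 1 of 14 D cyclin and inhibitor genes called, and fell by 0.77 on the log2 scale (SE 0.10).

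Promoters of the mitosis genes are shown because the genes moved together. Many such genes carry a cell cycle homology region, here searched as TTTGAA, and boxes of the letters CCAAT, on both strands. TTTGAA was present in 19 of the 24 mitosis genes with a window (79.2%), in 3 of 25 DNA replication genes (12%) and in 20.2% of 27025 genes. CCAAT was present in 83.3%, 60% and 41.1% of the same sets. Among all called genes, TTTGAA was present in 25.5% of the lower ones and 12.5% of the higher ones with a window. The lower ones include the mitosis genes, and the share without them was not computed. The windows shown run 5′ to 3′ from 250 bases before to 30 after the start of RefSeq (GRCm38.p6), and capitals mark TTTGAA and CCAAT or their reverse complements. They lie at chr10:69352883-69353162 on the minus strand (Cdk1), chr4:118437314-118437593 on the minus strand (Cdc20) and chr2:164769679-164769958 on the plus strand (Ube2c). TTTGAA began 15 and 71 bases before the start in Cdk1, 18 in Cdc20 and 29 in Ube2c. Mcm5, a subunit of the replicative helicase that was not called, at chr8:75109259-75109538 on the plus strand, is given for contrast and holds 3 CCAAT letters and no TTTGAA.
Cdk1: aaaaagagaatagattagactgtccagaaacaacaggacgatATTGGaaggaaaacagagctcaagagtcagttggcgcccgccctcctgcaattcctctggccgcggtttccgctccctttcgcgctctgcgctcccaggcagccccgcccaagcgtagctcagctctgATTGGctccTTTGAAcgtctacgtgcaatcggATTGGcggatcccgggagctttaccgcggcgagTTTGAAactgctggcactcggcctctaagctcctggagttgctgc
Cdc20: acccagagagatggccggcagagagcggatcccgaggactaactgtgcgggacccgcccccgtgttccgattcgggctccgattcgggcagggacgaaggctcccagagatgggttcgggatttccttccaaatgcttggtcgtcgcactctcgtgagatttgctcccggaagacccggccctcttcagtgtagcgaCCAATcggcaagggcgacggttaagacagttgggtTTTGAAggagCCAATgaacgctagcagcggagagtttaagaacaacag
Ube2c: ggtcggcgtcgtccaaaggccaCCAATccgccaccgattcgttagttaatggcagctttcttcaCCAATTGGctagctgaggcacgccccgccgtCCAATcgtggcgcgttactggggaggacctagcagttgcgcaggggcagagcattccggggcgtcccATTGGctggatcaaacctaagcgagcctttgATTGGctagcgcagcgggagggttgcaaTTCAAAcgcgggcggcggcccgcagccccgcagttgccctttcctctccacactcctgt
Mcm5: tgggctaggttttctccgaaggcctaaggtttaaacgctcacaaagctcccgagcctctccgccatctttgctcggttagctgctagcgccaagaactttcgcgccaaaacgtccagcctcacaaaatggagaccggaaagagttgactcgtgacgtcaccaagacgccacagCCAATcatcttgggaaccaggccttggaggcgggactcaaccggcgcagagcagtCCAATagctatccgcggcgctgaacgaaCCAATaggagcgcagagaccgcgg

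The same CD25 contrast was then set beside that of CD49f- cells, which shares no array with it. There, 2551 genes (14%) passed the same test, with 1699 (9.34%) raised and 852 (4.68%) reduced in the CD25+ cells. Of the 511 genes higher with CD25 in CD49f+ cells, 374 were also higher in CD49f- cells (73.2% of the first list and 22.0% of the second) and 2 were lower there. Of the 529 lower genes, 205 were also lower (38.8% and 24.1%) and 83 were higher there. The difference between the gates was tested directly as an interaction. It was called in 966 genes (5.31%), of which 787 (4.33%) had a lower and 179 (0.984%) a higher CD25 difference in CD49f+ than in CD49f- cells. All 83 genes with opposite calls, and both of the 2 others, were among the 966. This follows almost by construction, since the interaction is the difference of the 2 contrasts, and it adds no support. Without CD25+CD49f- replicate 5 the interaction was called in 1015 genes, 846 lower and 169 higher.

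The Treg identity genes rose in both gates, but less in CD49f+ cells. Their median difference was 2.921 in CD49f- cells against 1.304 in CD49f+ cells. The difference between gates was called, lower, in 15 of 21, against 4.33% of all genes. Foxp3 rose by 5.05 in CD49f- and 1.60 in CD49f+ cells (interaction -3.46, adjusted p = 2.83e-12), while its CD25+ means were 9.79 and 9.85. The gates differed at the lower end, where Foxp3 averaged 4.74 in CD25-CD49f- and 8.25 in CD25-CD49f+ cells. Itgae and Ctla4 had interactions of -3.57 and -3.15. Ecm1 (-0.13, adjusted p = 0.829), Tnfrsf18 (-0.48, adjusted p = 0.0923) and Plagl1 (-0.63, adjusted p = 0.0558) were not called in it.

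The effector and memory genes and the mitosis genes went different ways in the gates. For comparison, 9.34% of all genes were higher with CD25 in CD49f- cells, and the interaction was called, lower, in 4.33%. With CD25, 13 of 20 effector and memory genes were higher in CD49f- cells and 12 were lower in CD49f+ cells, and the interaction was called, lower, in 16. S100a4 differed by 1.78 in CD49f- and by -1.31 in CD49f+ cells, Lgals3 by 2.72 and -1.02, and Ifng by 2.50 and -1.36. Of the 29 mitosis genes, 10 were higher and 1 lower with CD25 in CD49f- cells, and the interaction was called, lower, in 26. Mki67 differed by 0.77 and -1.16, with an interaction of -1.93 (adjusted p = 3.58e-06). For DNA replication genes, 20 of 29 were higher with CD25 in CD49f- cells. Dapl1 (-3.17) and Pdlim4 (-3.72) fell with CD25 in CD49f- cells too, and the interaction of Dapl1 was not called (0.43, adjusted p = 0.41). The genes with the smallest interaction p-values were mostly ones that CD25 divided in CD49f- cells alone. Arnt2, a partner of basic helix-loop-helix factors, read 5.40, 5.49, 5.33 and 5.37 with CD25 and from 5.34 to 5.58 without it in CD49f+ cells, all in the range of absent transcripts, and differed by 3.79 in CD49f- cells. Klrb1b (0.07 against 4.04) and Kcnk1 (0.06 against 3.48) were likewise under 6.499 in both CD49f+ groups. Klrg1 (0.25 against 3.36) and Osbpl3 (0.07 against 2.11) had small CD49f+ differences at levels above it, with CD25+CD49f+ means of 7.90 and 8.46.

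**Figure D4:**
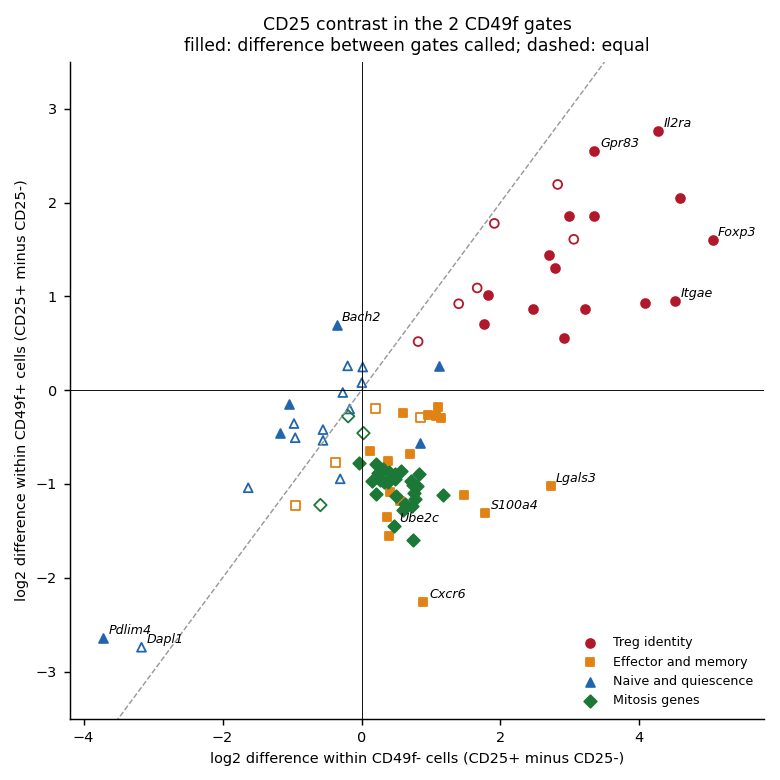
Log2 differences of CD25+ minus CD25- cells within CD49f- cells (horizontal) and within CD49f+ cells (vertical) for members of 4 lists, filled where the difference between gates was called, with a dashed line of equal differences. Treg identity genes lie in the upper right, most below the line, and 28 of 29 mitosis genes are called below 0 on the vertical axis, with Foxp3 at 5.05 and 1.60.

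**Figure D5:**
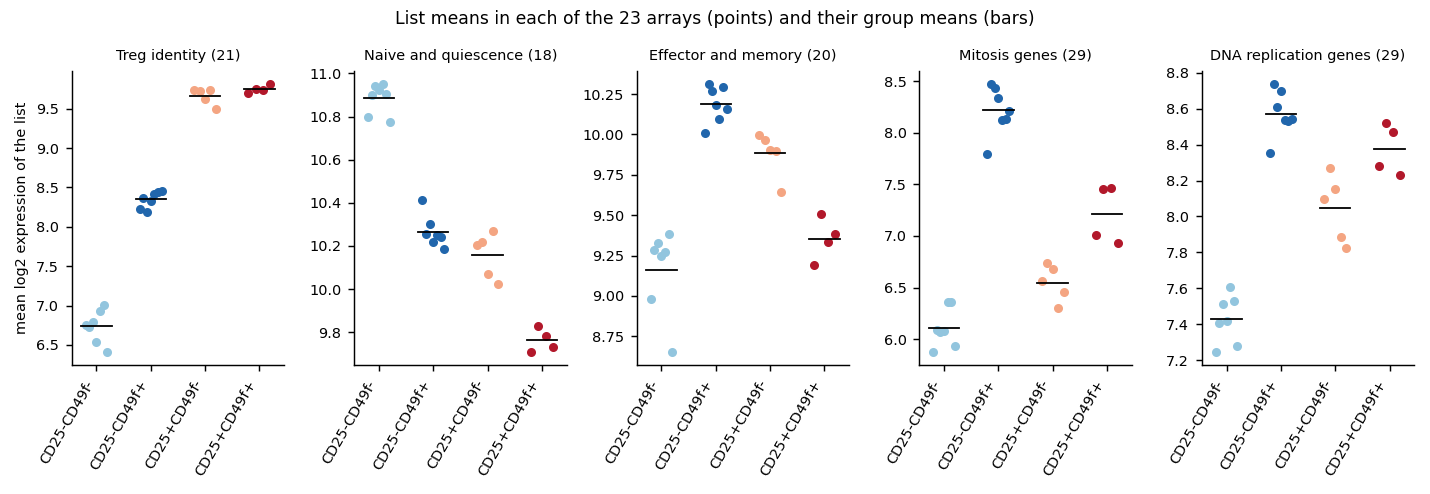
Mean log2 expression of 5 lists on each of the 23 arrays, in 4 groups, with the group means as bars; each panel has its own axis range. The mitosis mean is highest in CD25-CD49f+ cells (7.80 to 8.47), and the CD25+CD49f+ arrays have the lowest means of naive and quiescence genes (9.71 to 9.83).

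Helper lineage lists other than Th1 were mixed. The shares over all genes were 2.81% higher and 2.91% lower. Th17 genes had 2 lower members of 8, Rora (-0.62 ± 0.11) and Tmem176b (-0.52 ± 0.12, adjusted p = 0.0569 without CD25+CD49f+ replicate 1). Tfh genes had 2 higher and 4 lower of 17, with Slamf6 (-0.73 ± 0.16) and Tox2 (-0.99 ± 0.14) lower and Izumo1r (folate receptor 4) higher by 1.01 ± 0.17. Th2 genes had 2 higher and 1 lower of 11. Among 19 integrin and adhesion genes, Itgb3 fell by 1.18 on the log2 scale (SE 0.14) beside the rises of Itga6, Itgae and Itgb8. Of the metabolic and housekeeping lists, none of 23 respiratory chain, 16 sterol synthesis, 10 ribosomal protein or 18 chaperone genes was called by limma, with 0, 1, 0 and 2 at an unadjusted p under 0.05, and the glucose transporter Slc2a3 (0.54 ± 0.12) was the 1 called of 16 glycolysis genes and the transporter Slc7a5 (0.54 ± 0.09) the 1 of 10 amino acid transporters, against 5.72% of all genes. Interferon response genes had 2 higher and 2 lower of 19 (21.1% called, against 5.72% of all genes).

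Markers of other cells were compared in the same way, since a sort can carry them. Their counts stand against 2.81% of all genes higher and 2.91% lower, and in lists this small 1 or 2 calls say little. The defining CD8 T cell genes Cd8a (6.50 and 6.52 on average with and without CD25) and Cd8b1 (5.08 and 5.04) were at or near the level of absent transcripts and alike. The mean over the 7 CD8 markers was nevertheless 6.38 to 6.54 with CD25 and 6.88 to 7.08 without it, through Gzmk, Klrd1 and Nkg7, the 3 that were lower. NK cell markers had 2 lower members of 12, Klrd1 and Klrc1, and the defining Ncr1 averaged 5.32 and 5.37. Gamma delta and NKT cell markers had 2 lower of 5, Zbtb16 and 5830411N06Rik, with list means of 5.82 to 5.99 and 6.20 to 6.37. Neutrophil markers had 2 lower of 9, with list means of 6.59 to 7.29 and 7.40 to 7.88 that did not overlap. Leaving out 1 array gave 1 to 6 lower neutrophil markers, with 6 without CD25-CD49f+ replicate 1. Mpo fell by 1.46 on the log2 scale (SE 0.25), and S100a9 by 0.89 (SE 0.26), a call lost without any of 11 arrays (adjusted p up to 0.282). S100a8 averaged 9.02 with CD25 and 9.78 without it. B cell markers (1 higher, 1 lower of 18), plasma cell markers (0 of 8, 1 at an unadjusted limma p under 0.05) and myeloid and dendritic cell markers (1 higher, 1 lower of 19) had overlapping list means, with Cd79a at 5.21 and 5.27. Csf1r averaged 7.78 with CD25 and 8.50 without it and was not called. Erythroid and stromal markers had no called member of 8 and 11 by limma (3 and 0 at an unadjusted p under 0.05), platelet markers 1 higher (Selp) and 1 lower (Itgb3) of 13, and plasmacytoid dendritic cell markers 1 higher (Pacsin1) of 10. The part of neutrophil, NK, CD8 or gamma delta and NKT cell transcripts in the lower Th1, cytotoxic and effector genes was not tested. Among the T cell genes themselves, Cd4 (-0.41 ± 0.10) and Thy1 (-0.40 ± 0.11) were lower in CD25+CD49f+ cells, 2 of 11. The Cd4 call was lost under quantile scaling, under cyclic loess, on the probe set with the largest variance and among arrays of either kind of sex-linked transcript alone, and the Thy1 call without CD25+CD49f+ replicate 1, 2 or 4 (adjusted p up to 0.109).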

How the data were processed

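Mouse CD4+ T cell RNA was measured on 23 Affymetrix arrays, 1 per sample, in 4 groups. The authors deposited log2 expression values normalized by RMA, per the submitters' processing notes, with no software version named there. No counts exist for arrays, and the number of arrays limits the precision. The labels call the samples of a group biological replicates, without saying whether each was 1 animal or a pool. Of 45101 probe sets, 34958 named 1 gene, 932 several and 9211 none; 34754 matched RefSeq and 204 kept the platform's name. The probe set with the highest mean was used for each of 18194 genes, 9012 of which had several.

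All 23 arrays were fitted together with limma (version 3.58.1, R 4.3.3), with Benjamini-Hochberg adjustment over all genes and calls at 0.05; figures used Python 3.11.15 and matplotlib 3.10.9. The procedure was tested on simulated data, where 64% of 50 changes of 0.5, 97% of 100 changes of 1 and 100% of 50 changes of 2 were called, with 17 false calls. The simulated noise was normal and independent between genes and arrays. It held no array that stood apart and no mix of sex-linked transcripts, so these rates need not hold for the real arrays. Group means carry SDs, and differences carry standard errors. Named genes were the sort markers, the 15 largest changes each way with a level above absent transcripts, up to 4 called members per list by p-value, and the 12 smallest interaction p-values; other list members were named after their values were seen. Members and lists were chosen with earlier results of these data known. Of 720 list entries 648 were measured. These were 554 different genes, so some genes count in more than 1 list and the list counts are not separate results. Alternatives covered scaling, array weights, variance model, probe set choice, dim genes, threshold, replicate number as a block and each array left out. Those chosen after seeing the data were the removal of 4 arrays that stood apart, the split or covariate by Y-linked transcripts, and a covariate for the gap between 3' and 5' probe sets of Actb.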

Additional observations from a re-analysis of the deposited data

Results flagged for a closer look

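In 336 sets of arrays (1 gene in 1 group), 41 held an array whose gap to its nearest neighbour, over the range of the group, passed Dixon's 95% limit (0.829 for 4 arrays, 0.568 for 7). Chance alone marks about 1 set in 20. CD25-CD49f+ replicate 1 was that array in 27 sets, and the genes are not independent of each other. It was the lowest of its group in Birc3 (9.08), Esm1 (6.31), Il21 (5.52), Irf4 (7.38), Itgb1 (10.24), Itgb8 (5.60), Itih5 (6.06), Klrc1 (3.47), Mcm2 (8.56), Nrp1 (9.21), Nt5e (8.97), Pclaf (9.60), Rragd (4.37), Runx3 (8.26), Uqcrfs1 (9.26) and Xbp1 (9.94). It was the highest in Cd4 (9.88), Dhcr7 (8.89), Ecm1 (7.46), Il4ra (8.44), Klf2 (11.90), Pdlim4 (9.30), Rgs10 (10.47), Satb1 (11.58), Sdhb (10.26), Thy1 (12.23) and Vipr1 (8.33). CD25-CD49f+ replicate 7 was the lowest in Ccr10 (6.17). CD25+CD49f+ replicate 1 stood apart in Anxa1 (7.85, lowest), Il2 (5.08, highest), Il2rb (10.34, lowest), Kcnk1 (4.77, highest) and Ntrk3 (5.92, highest). CD25+CD49f+ replicate 2 stood apart in Bach2 (9.72, highest), Bcl2 (10.25, lowest), Cxcr6 (6.07, highest), Gucy1a1 (7.89, highest) and Mcl1 (11.99, highest). CD25+CD49f+ replicate 3 stood apart in Sdhb (10.03, highest). CD25+CD49f+ replicate 4 stood apart in Itih5 (9.02, highest) and Pcna (11.79, lowest).

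Of the 172 genes named by the rule or by choice, 90 had a CD25 difference that differed between the CD49f gates by the limma interaction (adjusted p under 0.05), given as the log2 difference in CD49f+ cells minus that in CD49f- cells. It was higher in CD49f+ cells in 9, which were Siglech (1.35), Klrd1 (1.32), Pdlim4 (1.08), Bach2 (1.05), Bcl2 (0.90), Il4ra (0.82), Lef1 (0.71), Cdh5 (0.61) and Itga6 (0.60). It was lower in 81. Values -3 or less were those of Klrb1b (-3.97), Ifng (-3.86), Arnt2 (-3.85), Fam184b (-3.82), Lgals3 (-3.74), Itgae (-3.57), Foxp3 (-3.46), Kcnk1 (-3.42), Pxdc1 (-3.18), Ctla4 (-3.15), Cxcr6 (-3.15), Klrg1 (-3.11), Rgs1 (-3.11), S100a4 (-3.09) and Dusp4 (-3.02). Values between -3 and -2 were those of Hspa1a (-2.96), Tmem176a (-2.89), Tmem176b (-2.85), Esm1 (-2.82), S100a6 (-2.59), Upp1 (-2.59), Penk (-2.54), Gzmb (-2.47), Ctla2a (-2.35), Ikzf2 (-2.35), 5830411N06Rik (-2.12), Pclaf (-2.08), Osbpl3 (-2.04) and Rora (-2.03). Values between -2 and -1 were those of Il2 (-1.99), Birc5 (-1.96), Emp1 (-1.95), Id2 (-1.95), Mki67 (-1.93), Ube2c (-1.92), Ccnb2 (-1.87), Tox2 (-1.86), Il2rb (-1.85), Ebi3 (-1.81), Il18rap (-1.79), Anxa1 (-1.74), Cdk1 (-1.72), Cxcr3 (-1.72), Cdc20 (-1.69), Ntn4 (-1.68), Nrp1 (-1.60), St6galnac2 (-1.55), Il2ra (-1.51), Cdkn2c (-1.50), Anxa2 (-1.49), Ikzf4 (-1.49), Il21 (-1.48), Tnfrsf4 (-1.47), Tbx21 (-1.42), Lgals1 (-1.39), Nfil3 (-1.37), Plk1 (-1.30), Zbtb16 (-1.30), Cd44 (-1.28), Tnfrsf9 (-1.27), Nkg7 (-1.16), Cenpa (-1.15), Socs2 (-1.13), Gata3 (-1.11), Il10 (-1.10), Mcm5 (-1.10), Nt5e (-1.07) and Ccr10 (-1.02). Values between -1 and 0 were those of Gzmk (-0.98), Ier3 (-0.94), Runx3 (-0.93), Itih5 (-0.89), Tnfrsf1b (-0.84), Izumo1r (-0.82), Gpr83 (-0.81), Spry1 (-0.78), Il4 (-0.70), Gpr183 (-0.68), Bcl2l1 (-0.66), Nr4a3 (-0.64) and Fasl (-0.61).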

How the results depend on the processing

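The 1040 calls (511 higher, 529 lower) and 966 interaction calls (179 higher, 787 lower) moved most with array weights, which gave 3083 calls (1536 higher, 1547 lower) and 2273 interaction calls (691 higher, 1582 lower). Without the 4 arrays that stood apart they were 2361 (1092 higher, 1269 lower) and 1710 (427 higher, 1283 lower). At an adjusted p under 0.01 they were 675 (319 higher) and 599 (69 higher). Arrays without Y-linked transcripts gave 493 (232 higher, 261 lower) and 370 (19 higher, 351 lower), and arrays with Y-linked transcripts and without Xist 264 (139 higher, 125 lower) and 242 (35 higher, 207 lower), in fits with fewer samples. A fit of the compared groups alone called 797 genes lower, and testing every probe set gave 272 higher interaction calls. Leaving out 1 array gave 785 to 1325 calls (381 to 655 higher, 360 to 670 lower) and 773 to 1128 interaction calls (128 to 250 higher, 639 to 878 lower). The cause of these shifts was not tested, apart from the smaller number of samples and the stricter threshold by construction. No called value of a named gene changed direction, while uncalled differences near 0, such as those of Cd3e, Cd79a, Cd8a and Gata3, changed sign under some alternatives. Quantile scaling, median centring, cyclic loess, the other variance model, the other choices of probe set, the brighter genes alone and the covariates stayed within 1.5 times of both totals.

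Replicate numbers recur in all groups. The correlations of deviations between same-numbered CD25+CD49f+ and CD25-CD49f+ arrays were 0.167, 0.268, -0.199 and -0.13. They are too few and too weak to decide whether numbers 1 and 2 pair the samples. Numbers 3 and 4 did not pair them by sex-linked transcripts. Their CD25+CD49f+ arrays showed Y-linked transcripts without Xist, and their CD25-CD49f+ arrays Xist without Y-linked transcripts. With the replicate block 936 genes and 985 interactions were called, and with the replicate block as a random effect 1028 and 939. Signals near those of absent transcripts limit the size of changes in dim genes: of the 1040 called genes, 401 had their lower mean under 6.499.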
